A study of Mus musculus with 6 samples.

Results

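Translation initiation and elongation factors were taken as the genes whose symbol is Eif followed by a digit or begins with Eef1 or Eef2, matched through the RefSeq accession of each array probe. The rule found 108 probes for 70 genes among the 56605 probes of the array, and 26 of the 70 genes had more than 1 probe. The cells were C5aR+ LysoDCs, lysozyme-expressing mononuclear phagocytes that carry the receptor for C5a and were sorted from mouse Peyer's patch, a lymphoid organ in the gut wall. They were cultured with CSF-1 and a factor that the labels spell CFS-2, and 3 samples received no C5a (0 nM) while 3 received 100 nM recombinant C5a for 3 h. C5a is the small peptide released when complement component C5 is cleaved, and the series addresses the intracellular signalling it triggers in these cells. The labels give neither strain, age nor the number of animals behind a sample, and they do not state the culture time of the untreated samples. Nothing says that replicates were separate cell preparations, so p-values measure only the spread between these samples, which may be technical.

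Initiation factors bring the small ribosomal subunit and the initiator tRNA to the start codon of an mRNA, and elongation factors then carry tRNAs and move the ribosome along it. Phagocytes reset this machinery within minutes of a signal, mostly by phosphorylating a few of its proteins, which an array of RNA levels does not see. The control points are eIF2, which stress kinases switch off, and the cap-binding protein eIF4E, which inhibitor proteins hold until the kinase mTORC1 releases it.

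All 6 arrays came from 1 slide. Brightness, taken over the probes seen on every array as the 75th percentile of their signal, spanned a 4.23-fold range, from 109 on untreated 3 to 460 on untreated 2. Of all probes, 2727 to 6959 per array were well above background, the flag that the scanner software sets. Of 12 mononuclear phagocyte markers, 10 were well above background on at least 3 arrays, among them Lyz2, Itgax and Csf1r, while Cx3cr1 and Mertk were on none. No marker of T cells, epithelium, Paneth cells, neutrophils, fibroblasts, endothelium, erythroid cells or mast cells was detected on any array. All 4 plasmacytoid dendritic cell markers were detected on at least 3 arrays, 0 to 4 of them per untreated array and 2 to 4 per C5a array. Both plasma cell markers on the array, Jchain and Mzb1, were detected on at least 1 array, 0 to 1 of them per untreated array and 0 to 2 per C5a array. Of 5 B cell markers, 1 was detected on at least 3 arrays, and Ccr7 was the only detected one of 5 conventional dendritic cell markers. The part of these other cells in the values below was not tested. In such bulk samples, fewer cells of a type and less RNA per cell cannot be told apart.

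A gene was counted as measured where at least 1 of its probes passed background on 3 or more arrays of either group. By this rule 38 of the 70 translation factor genes (54.3%) were measured, against 14.3% of the 22911 named genes of the array. On all 6 arrays there were 22 (6.24% of named genes were), 5 reached background on 1 or 2 arrays alone, and 27 were seen on no array (77.8% of named genes). Detection depends on the probe as well as on the RNA, so a gene on no array was below the limit of these arrays and not shown to be silent.

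**Figure D1:**
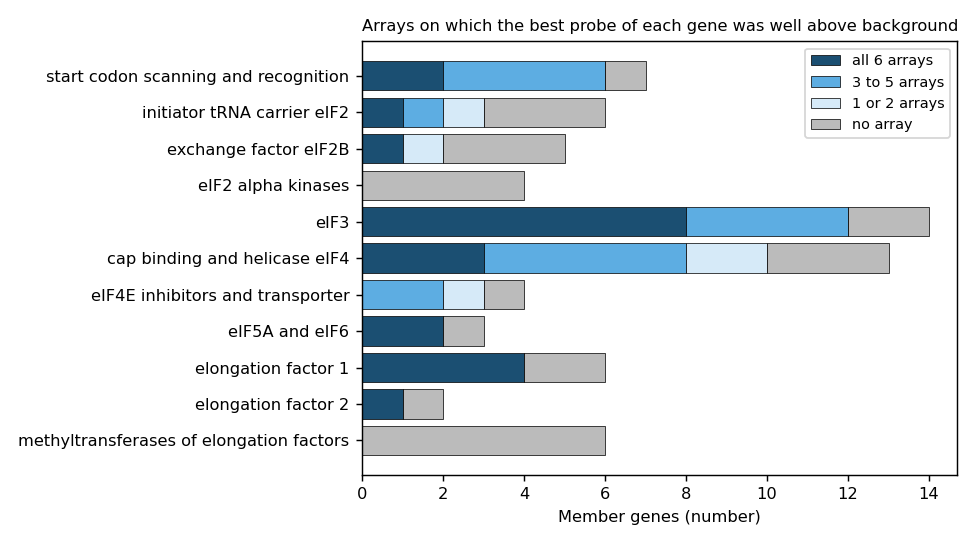
The bars count the 70 genes by role (x axis, number of genes) and by the number of arrays on which the best probe of the gene was well above background. Measured genes make up 12 of 14 in eIF3, and none of the 4 eIF2 alpha kinases or of the 6 methyltransferases.

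The measured genes were mostly the core machinery. Roles were assigned by gene symbol, so a group can hold genes that act elsewhere, such as the exon junction helicase Eif4a3 in the eIF4 group. In eIF3, the large scaffold that joins the small ribosomal subunit to the mRNA, 12 of 14 genes were measured, and Eif3j1 and Eif3j2 were not. Of the 7 genes grouped under scanning and start codon recognition 6 were measured, with Eif5b, which joins the large subunit, on no array. Of the 6 genes grouped under elongation factor 1 by symbol 4 were measured. Eef1a2, the form of muscle and neurons, and Eef1e1 were on no array. In the eIF4 group, whose main factors bind the mRNA cap and unwind the leader, 8 of 13 were measured. Eif4a3, Eif4e1b and Eif4e3 were on no array.

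The kinases and methyltransferases among the genes of the rule were on no array, as were 77.8% of named genes. None of the 4 eIF2 alpha kinases, Eif2ak1 to Eif2ak4, was well above background on any array. The same held for Eef2k, the kinase that inhibits elongation factor 2, over all its probes, and for all 6 methyltransferases of the elongation factors. Only Eif2b2 of the 5 subunits of eIF2B, the exchange factor that recharges eIF2, was measured, and Eif2b4 was detected on 2 arrays. Of the eIF4E inhibitors, Eif4ebp1 and Eif4ebp2 were measured and Eif4ebp3 was detected on 1 array. The gamma subunit of eIF2 is encoded on both sex chromosomes, by Eif2s3x, detected on 1 array, and Eif2s3y, on none.

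Detection of these genes moved with brightness. Of the 70 genes, 31, 43 and 22 were above background on the untreated arrays (1 to 3), while the C5a arrays had 36, 41 and 31. All 11 probes of the list that reached background on only 1 or 2 arrays did so on untreated 2 or C5a 2, the brightest arrays, and nowhere else. Counts of the groups overlapped, and no gene was detected on all arrays of 1 group and on none of the other.

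**Figure D2:**
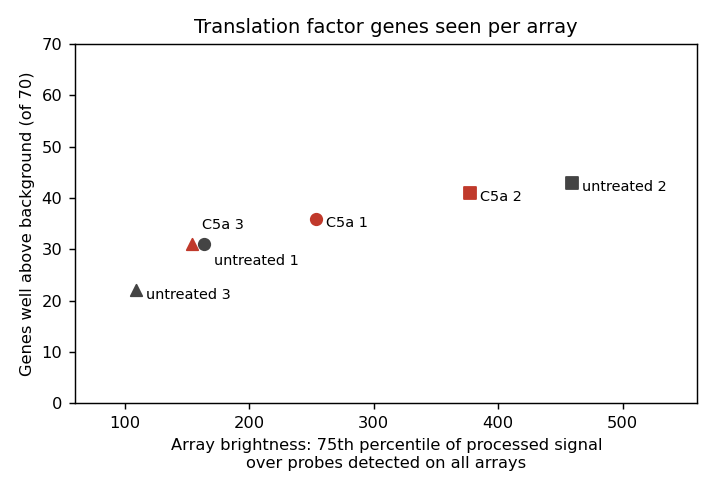
Each point is 1 array, with its brightness on the x axis (75th percentile of signal) and the number of translation factor genes well above background on the y axis. The count goes from 22 on untreated 3 to 43 on untreated 2.

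Many mRNAs of the translation machinery begin with a stretch of C and T known as a TOP element, through which mTORC1 controls their translation. RefSeq start-site sequences (GRCm38.p6) were given for 54 of the 70 genes, and a window of 30 bases, 5 before the annotated start and 25 from it on, was searched on the transcribed strand for 8 or more bases in a row that are C or T. Such a run was found in 12 of the 54 genes (22.2%), against 11.9% of 27025 genes with a start in that table and 13.3% of 2658 measured genes with one. It was present in 6 of 30 measured members and in 6 of 24 that were not measured. The windows of the 6 measured genes are shown because all 6 were well above background on every array, with the longest run in capitals.
Eef1a1: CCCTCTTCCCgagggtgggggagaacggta
Eef2: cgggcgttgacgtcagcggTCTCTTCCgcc
Eif2b2: cggaagttgaCCTCTCTCggcccggaagtg
Eif3f: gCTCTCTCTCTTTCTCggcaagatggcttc
Eif3k: gcgctggtgctgaaagcgCCTTTCCCTTTg
Eif3l: cttcttccgCTCTCTCCCacgggcttctgg
These windows lie at chr9:78481700-78481729 (minus strand) for Eef1a1, chr10:81176626-81176655 (plus) for Eef2, chr12:85219476-85219505 (plus) for Eif2b2, chr7:108934410-108934439 (plus) for Eif3f, chr7:28981864-28981893 (minus) for Eif3k and chr15:79075218-79075247 (plus) for Eif3l. A run is a description of the letters at or near an annotated start, which need not be the start used in these cells. The runs of Eef1a1 and Eif3f span that start, while those of Eef2, Eif2b2, Eif3k and Eif3l begin after it. Whether any of them acts as a TOP element was not tested. The C5a differences of these 6 genes, described below, ran from -0.05 to 0.63.

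Levels are log2 signals relative to the 75th percentile of each array over detected probes, so they compare arrays for 1 probe and not genes with each other. Differences are C5a minus untreated, with 3 samples per group, and SEs and p-values come from limma, a linear model fitted over all 4488 genes measured. A probe without a gene name counted as its own gene, and 3276 of the 4488 were named genes. Shares and medians of all genes include these unnamed probes. None of the translation factor genes met the threshold for a difference with C5a. With Benjamini-Hochberg adjustment over all genes, 0 of the 38 had an adjusted p under 0.05 (limma), where 0.0% of all 4488 genes did. At an unadjusted p under 0.05 there were again 0 of 38, against 2.34% of all genes, and the lowest p was 0.142. An exact permutation test of 3 against 3 samples cannot go below 0.10.

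The differences of the 38 genes lay between -0.62 and 0.84. Their median was 0.05 against 0.04 over all genes, and 23 were positive, against 54.9% of all genes. Scaling by the percentile over all probes moved the median of all genes to 0.40 and that of the members to 0.41, with 34 positive, while normexp gave medians of -0.12 and -0.09 with 11 positive. Members above the median of all genes numbered 20 of 38 here and with the percentile over all probes, 15 with quantile normalization and 25 with normexp. The 95% interval of the median member reached 1.65-fold to either side, an interval for 1 gene that makes no allowance for the number of genes tested. For 2 of the 38 genes, Eif3b and Eif4g3, all C5a values lay below all untreated values, where groups did not overlap for 5.68% of all genes, with C5a lower for 2.32% and higher for 3.36%. The count was 2 here and went to 0 with the percentile over all probes and with quantile normalization. Over all 4488 genes it was 255 here, 50 with the percentile over all probes and 279 with quantile normalization.

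**Figure D3:**
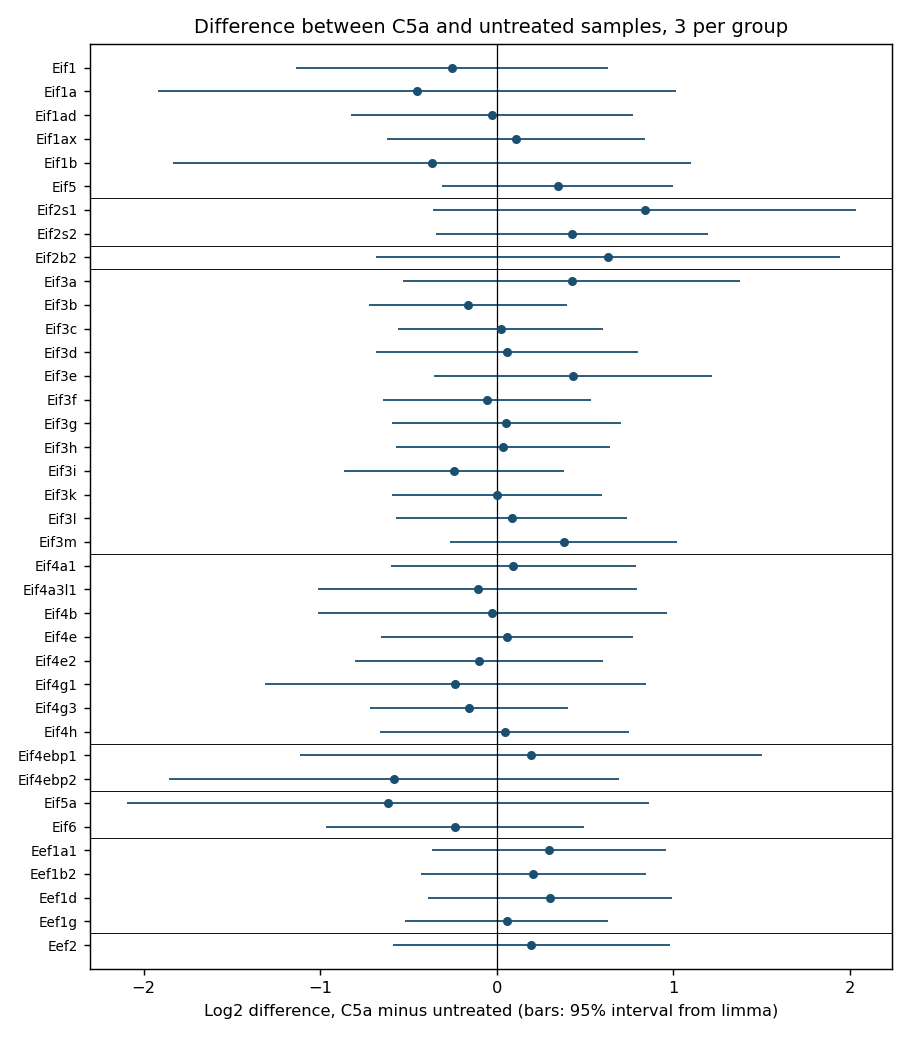
Points give the log2 difference of each of the 38 measured genes, C5a minus untreated, and bars its 95% interval from limma, with 3 samples per group. Lines part the roles from scanning factors at the top to Eef2 at the bottom, and every interval spans 0.

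Same-numbered samples were also set against each other, since they deviated together over genes. With C5a, 5 of the 38 genes were higher in all 3 pairs, namely Eef1b2, Eef1g, Eef2, Eif2s1 and Eif3m, where 14.4% of all genes were. Eif3b and Eif4g3 were lower in all 3 pairs, where 10.8% of all genes were. In Eef2 the pairs differed by 0.49, 0.04 and 0.06, and in Eif3m by 0.23, 0.30 and 0.61. Those of Eef1b2 differed by 0.54, 0.0004 and 0.08, those of Eef1g by 0.04, 0.02 and 0.11. For Eif2s1 they differed by 1.31, 1.05 and 0.15. With the mean of kept probes 2 members were higher in all pairs (14.4% of all genes) and 2 lower (11%). Under the percentile over all probes 6 members were higher in all pairs and 0 lower, where 22.6% of all genes were higher and 1.58% lower. With normexp 4 members were higher and 7 lower, where 4.08% of all genes were higher and 20% lower.

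The scanning factors did not share a direction. Eif1 guards the choice of start codon, and replicates 1 to 3 had levels of 0.66, 0.90 and 1.06 untreated and of 1.35, 0.35 and 0.15 with C5a. The C5a samples lay on both sides of the untreated ones, and the difference was -0.25 (SE 0.37), with a positive sign under the percentile over all probes and with normexp background correction. Eif5 makes eIF2 release the initiator tRNA by triggering its GTP hydrolysis. Its level was -2.10, -1.75 and -2.14 in untreated and -1.65, -1.91 and -1.39 in C5a samples, which overlapped, and the difference was 0.34 (SE 0.28).

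Eif1a, which works with eIF1 in scanning, showed 1 sample apart. It was at -3.14, -2.58 and -2.58 in untreated samples and at -4.69, -2.75 and -2.23 in C5a samples, so C5a 1 was the lowest and C5a 3 the highest of all. Its difference of -0.45 (SE 0.62) became 0.28 without C5a 1. Eif1b had the same shape on another array, at -5.05 on C5a 3 where the other 5 lay between -3.36 and -2.76. Eif1ax, the X-linked relative of Eif1a, spread less, from -3.12 to -2.35 over all arrays, and Eif1ad from -4.18 to -3.17. Eif1a, Eif1b, Eif1ax and Eif1ad were well above background on 4 or 5 of the 6 arrays.

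The measured subunits of eIF2 and eIF2B had positive differences that became smaller without untreated 1. Eif2s1, the alpha subunit that stress kinases phosphorylate, was at -5.06, -3.66 and -3.49 in untreated and at -3.76, -2.61 and -3.34 in C5a samples. Untreated 1 was the lowest and C5a 2 the highest, the others overlapped, and the probe passed background on 1 untreated array and on 3 with C5a. The difference of 0.84 (SE 0.51, 95% interval -0.36 to 2.04) had the smallest p of the 38, and it was 0.34 without untreated 1. With the replicate number as a block its SE was 0.31 (limma adjusted p = 0.926), in a fit that put 4.23% of all genes under an unadjusted p of 0.05. With normexp background correction the difference was 0.02.

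Eif2s2, the beta subunit, was at -2.08, -1.09 and -1.58 in untreated and at -0.98, -1.15 and -1.33 in C5a samples. Untreated 2 lay among the 3 C5a values, and the difference was 0.43 (SE 0.33), or 0.18 without untreated 1. Eif2b2, the beta subunit of the exchange factor, stood at -3.18 on untreated 1 and between -1.58 and -0.95 on the other 5 arrays. Its difference was 0.63 (SE 0.56) with untreated 1 and -0.01 without it.

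The gap between the highest and the lowest array of an eIF3 gene ran from 0.27 to 1.42, with a median of 0.51, against 1.21 over all genes tested. Of the 12 measured subunits, 8 passed background on every array, and the differences of the 12 ran from -0.24 to 0.43 with a median of 0.04. Eif3c, a core subunit, was at -0.58, -0.49 and -0.30 in untreated and at -0.51, -0.34 and -0.46 in C5a samples. The 6 values interleaved, with a difference of 0.02 (SE 0.25, 95% interval -0.56 to 0.60). Eif3b, another core subunit, was named after its values were seen. It was at -1.18, -1.27 and -1.22 in untreated and at -1.31, -1.41 and -1.45 in C5a samples, so the groups did not overlap, but the gap was small, with a difference of -0.16 (SE 0.24) whose sign was positive under the percentile over all probes.

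The subunits with the smallest p were not detected on every array. Eif3m was at -3.36, -3.80 and -3.71 in untreated and at -3.13, -3.50 and -3.11 in C5a samples, with untreated 1 above C5a 2 and a difference of 0.38 (SE 0.27). Eif3e was at -3.68, -2.84 and -3.08 against -2.49, -2.68 and -3.14, and the groups overlapped. Its difference was 0.43 (SE 0.33). Eif3i had the lowest difference of the complex, -0.24 (SE 0.26), with levels of -3.26, -3.09 and -3.18 in untreated and -3.17, -3.38 and -3.70 in C5a samples. With normexp the signs of Eif3m and Eif3e were negative, and under the percentile over all probes that of Eif3i was positive. These 3 genes were well above background on 4 or 5 arrays.

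Of the other eIF3 subunits, Eif3f and Eif3k varied by 0.31 and 0.36 between their highest and lowest array. Eif3d, a subunit that can bind the cap of some mRNAs, varied by 0.81 and was highest on C5a 3, at -0.55. Eif3a, the largest subunit, had the widest range of the complex, from -3.54 on untreated 3 to -2.12 on untreated 2, which enclosed all C5a values.

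**Figure D4:**
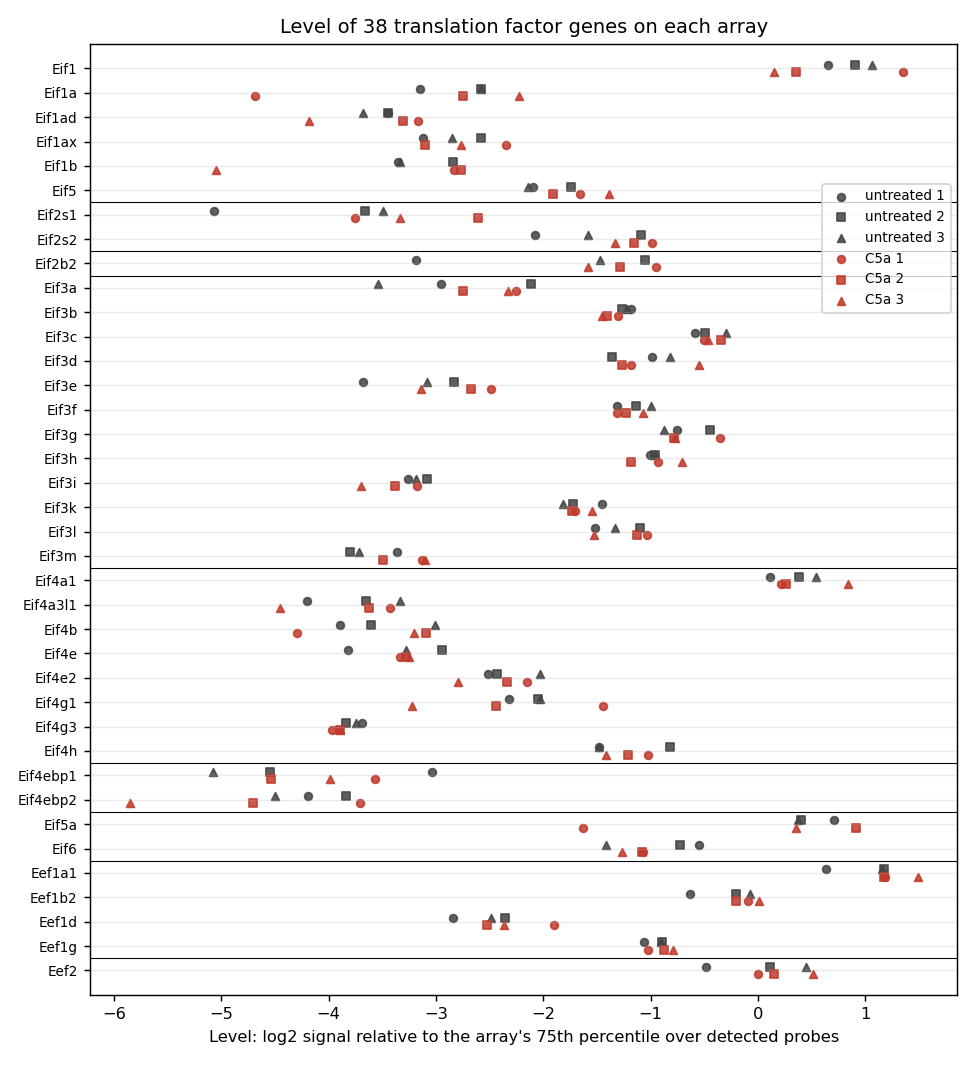
Each row is a measured translation factor gene, with 1 point per array (colour for group, shape for replicate number) on the x axis of log2 signal relative to the 75th percentile of the array over detected probes. Rows are grouped by role and cannot be compared with each other in level, and the points of Eif3b, Eif3c, Eif3f and Eif3k lie closest together among the eIF3 rows.

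In the cap-binding group the helicase Eif4a1, which unwinds mRNA leaders, was at 0.11, 0.38 and 0.54 in untreated and at 0.22, 0.26 and 0.84 in C5a samples. The groups overlapped, and the difference was 0.09 (SE 0.29, 95% interval -0.60 to 0.79). The cap-binding protein gene Eif4e was at -3.82, -2.94 and -3.28 in untreated and at -3.33, -3.28 and -3.25 in C5a samples, which the untreated values spanned. Eif4h, a helper of the helicase, ranged from -1.48 to -0.82, both in untreated samples, and Eif4e2, a cap-binding relative that represses translation, from -2.80 to -2.03. Eif4g1, the scaffold that holds cap-binding protein and helicase together, had both extremes in C5a samples, -1.44 on C5a 1 and -3.22 on C5a 3. Its relative Eif4g3 was also named after its values were seen. It was at -3.69, -3.84 and -3.75 against -3.97, -3.89 and -3.90, with no overlap and a difference of -0.16 (SE 0.24). Eif4g3 passed background on 1 untreated array and on 2 with C5a, and its groups overlapped under the percentile over all probes and under quantile normalization, where the sign was positive.

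Eif4a3l1, a copy of the exon junction helicase Eif4a3, was measured on 3 arrays while the probe of Eif4a3 was on none. Whether the probe of 1 copy takes up RNA of the other was not tested, so its level is uncertain. The same limit holds for Eef1a1, Eif1a with Eif1ax, and other genes with near-identical copies.

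The eIF4E inhibitors spread widely. Eif4ebp1, which mTORC1 phosphorylates to free eIF4E, was at -3.04, -4.55 and -5.08 in untreated and at -3.56, -4.53 and -3.99 in C5a samples. The untreated samples spanned all C5a samples, and the difference was 0.19 (SE 0.56), negative with normexp. Eif4ebp2 was at -4.19, -3.83 and -4.50 in untreated and at -3.71, -4.70 and -5.85 in C5a samples, the highest and the lowest values both with C5a. Its difference of -0.58 (SE 0.54) was -0.03 without C5a 3 and -1.11 without C5a 1.

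Eif5a, the hypusine-bearing factor that keeps ribosomes from stalling, had the most negative difference, and it was positive without 1 array. Probe A_66_P116112 was at 0.71, 0.40 and 0.37 in untreated and at -1.63, 0.91 and 0.35 in C5a samples, so C5a 1 stood below the other 5 arrays. The difference was -0.62 (SE 0.63) and 0.14 without C5a 1. The other kept probe, A_55_P2045066, did not show this: it was at -2.29 on C5a 1, above C5a 2 and C5a 3 at -2.78 and -2.85. In untreated samples this probe was at -2.50, -1.80 and -4.24, so the untreated range enclosed all C5a values. It passed background on 2 untreated arrays and on 3 with C5a, and its difference was 0.20 (SE 0.61). C5a 2 and 3 lay in the slide row without untreated arrays. With the slide row as a covariate the difference therefore rests on C5a 1 alone against the untreated arrays. In that fit Eif5a had -2.12 and Eif1a -1.92. Eif6, which keeps the large subunit apart until it is mature, was at -0.55, -0.73 and -1.42 in untreated and at -1.07, -1.08 and -1.26 in C5a samples, which lay inside the untreated range. Its difference was -0.24 (SE 0.31), while another kept probe of the gene gave 0.04.

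All 5 measured elongation factor genes were well above background on every array. Eef1a1 delivers tRNAs to the ribosome, and it was at 0.63, 1.17 and 1.15 in untreated and at 1.18, 1.17 and 1.49 in C5a samples. Untreated 1 was the lowest and C5a 3 the highest, while the other 4 lay close together, and the difference was 0.30 (SE 0.28, 95% interval -0.37 to 0.96). Its exchange partners Eef1b2, Eef1d and Eef1g recharge it with GTP. Eef1g was at -1.06, -0.89 and -0.90 in untreated and at -1.02, -0.87 and -0.79 with C5a, giving a difference of 0.06 (SE 0.24) that lies inside the spread and was negative with normexp. Eef2, which moves the ribosome by a codon, was at -0.49, 0.11 and 0.45 in untreated and at 0.00, 0.15 and 0.51 in C5a samples, with overlap and a difference of 0.20 (SE 0.33, 95% interval -0.59 to 0.98).

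The differences of the elongation factors were positive in 5 of 5, and untreated 1 was the lowest array for each of them. Over the 38 translation factor genes untreated 1 was lowest for 14 (36.8%), against 22.2% of all genes. Without untreated 1 the differences were 0.12 for Eef1a1, 0.04 for Eef1b2, 0.16 for Eef1d, 0.004 for Eef1g and -0.06 for Eef2. All 5 differences were smaller in size without that array, and that of Eef2 was negative.

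Replicate spots and second probes of a gene were also compared. The array carries 10 spots for each of 6 probes of the list, for Eef1a1, Eef1b2, Eef1d, Eef1g, Eef2 and Eif3h. Spots of 1 probe on 1 array, unmarked ones alone, had a log2 SD of net median signal between 0.10 and 1.12, with a median of 0.26. This is the spread of single spots and not the precision of a level, which averages processed signals over the spots. The levels of Eef1b2 and Eef1g came from other probes, with 1 spot each. Where 2 probes of a gene were measured, which was so for 8 genes, the signs of the C5a difference disagreed in 4, namely Eef1g, Eif3h, Eif5a and Eif6. For Eif3h, whose main probe was at -1.01, -0.96 and -0.96 untreated and at -0.93, -1.19 and -0.71 with C5a, the probes gave 0.04 and -0.09, for Eef1g 0.06 and -0.16, all smaller than their SEs of 0.24 to 0.26. The kept probes of Eef1a1 gave 0.30 and 0.01, those of Eef1b2 0.21 and 0.02, those of Eef2 0.20 and 0.07 and those of Eif4g1 -0.23 and -0.12.

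The spread over arrays differed widely between the genes. Over 2178 genes whose probe was well above background on all 6 arrays, the median gap between the highest and the lowest array was 0.88. Unnamed probes were again counted as genes. Over the 22 translation factor genes in this set the median gap was 0.74, with 16 of the 22 below the median of all genes. Ranked from the steadiest, Eef1g was 34, Eif3b 35, Eif3c 48, Eif3f 71 and Eif3k 115 of 2178, with gaps of 0.27 to 0.36. All 8 eIF3 genes in this set lay below the median gap here and with quantile normalization, 7 of 8 did with normexp, and 6 of 8 under the percentile over all probes. Under quantile normalization these 5 genes ranked 12 to 117 and with normexp 17 to 478, but under the percentile over all probes, which lies within background, they ranked 533 to 1025. At the other end, Eif2b2 ranked 2092 and Eif5a 2138, through the single arrays named above. This is a description of 6 arrays with no test.

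**Figure D5:**
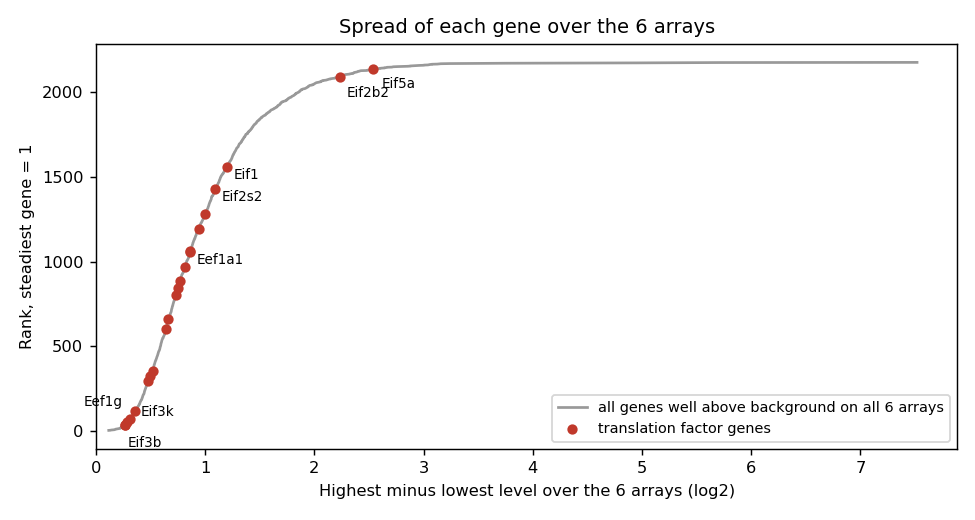
The curve ranks 2178 genes by the gap between their highest and lowest array (x axis, log2, and y axis, rank from the steadiest). Points mark the 22 translation factor genes on it, and unnamed probes count as genes. Eef1g and Eif3b lie near the steady end at 0.27, and Eif2b2 and Eif5a at 2.23 and 2.54.

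Genes that feed or follow these factors were read from 8 lists. Of 92 genes, 35 were measured, 0 passed the test (limma with Benjamini-Hochberg adjustment, 0.0% of all genes), 0 had an unadjusted p under 0.05, and their median difference was -0.05. Groups did not overlap for 2 of the 35, Mknk2 and Cars, where this held for 5.68% of all genes. Of 15 genes for mTORC1 and MAP kinase inputs, 4 were measured, with 2 positive and 2 negative differences. Mknk2, a kinase that phosphorylates eIF4E downstream of MAP kinases, was at -1.66, -3.22 and -1.54 in untreated and at -1.11, -0.31 and -1.32 in C5a samples. The groups did not overlap, and the difference was 1.22 (SE 0.52, 95% interval -0.004 to 2.45), with untreated 2 the lowest and C5a 2 the highest array. It was 0.69 without untreated 2, 0.72 with normexp and 1.88 with array weights. Its other probe was well above background on no array. Pdcd4, an inhibitor of the helicase eIF4A, was at 1.24, -0.64 and 0.96 against -0.36, 0.02 and 0.76, giving a difference of -0.38 (SE 0.56).

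Integrated stress response genes act when eIF2 is phosphorylated, and 5 of 14 were measured, 2 positive and 3 negative. Atf4, the transcription factor of this response, was at 0.03, 0.92 and 0.43 in untreated and at 1.00, 0.71 and 0.51 in C5a samples, overlapping, with a difference of 0.28 (SE 0.32) that was 0.07 without untreated 1 and 0.51 without untreated 2. Atf5 had -0.59 (SE 0.34). Of the 22 genes for tRNA charging, 10 were measured, 6 positive and 4 negative. Cars, which charges cysteine, was at -3.44, -3.54 and -3.39 in untreated and at -3.35, -3.21 and -2.78 in C5a samples, with no overlap, a difference of 0.34 (SE 0.27) and a negative sign with normexp. Gars, which charges glycine, had 0.34 (SE 0.35).

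The remaining lists gave similar values. Among 5 of 8 measured poly(A)-binding genes, Paip2 had a difference of 0.48 (SE 0.33) and Larp4b -0.51 (SE 0.37). Of 6 genes for termination and recycling 3 were measured, with Etf1, the release factor that reads stop codons, at -0.40 (SE 0.60), or 0.29 without C5a 1, and Pelo, a ribosome rescue factor, at 0.32 (SE 0.42). Abcf1 had -1.14 (SE 0.67) and Tpt1 0.42 (SE 0.29) among 3 of 10 measured non-canonical initiation genes, and Abcf1, at -6.05 on C5a 3, had -0.38 without that array, while Tpt1 had 0.09 as the mean of its kept probes. The enzymes that modify Eif5a and Eef2, 3 of 9 measured, were negative in 3, with Dhps, which begins hypusine synthesis, at -0.19 (SE 0.36) and Dph3, of the diphthamide pathway, at -0.24 (SE 0.61), and both signs turned under the percentile over all probes. Of 9 mitochondrial translation factors 2 were measured, with Tufm, the elongation factor of mitochondria, at 0.18 (SE 0.36) and Mtif2 at -0.08 (SE 0.33).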

How the data were processed

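Labelled cRNA (Cy3, 1 colour) was hybridised to 6 Agilent arrays (design 074809), read with Feature Extraction 10.10.1.1, per the file headers. The deposited scanner files give intensity per spot, background-subtracted within the array and not scaled between arrays, and flags of 0 or 1. The deposited series table holds log2 values and served as an alternative: 99.0% of differences between its columns lay within 0.01 of those in log2 processed signal scaled to the 75th percentile of all probes. That sets its scale and direction, while the baseline of each probe stays unknown. Its medians were 0.17, -0.08 and 0.18 for untreated and 0.01, -0.02 and 0.22 for C5a samples.

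Control spots were dropped, unmarked spots of a probe averaged as log2, and a probe counted as detected where at least 0.5 of its spots were well above background. Values were scaled by each array's 75th percentile over probes detected on all arrays. Probes detected on at least 3 arrays were kept, and the kept probe with the highest mean stood for its gene (4488 genes). Each unnamed probe counted as its own gene. Names came from RefSeq accessions (GRCm38.p6; 32994 of 56605 probes). The array design cites mm9, so no probe coordinates are given. Groups were compared with limma 3.58.1 in R 4.3.3, tested on simulated data, with a threshold of 0.05. Alternatives were other scalings, normexp (on median signals, offset 50, since the files hold no mean signal), filters, probe rules, array weights, the slide row, a replicate block and leaving out each sample. Same-numbered samples deviated together (correlations 0.21, 0.27 and 0.38 over genes), so the numbers were taken to pair them. Differently numbered samples had correlations of -0.25 to 0.07. In both groups number 2 was the brightest array and number 3 the dimmest, so pairing and brightness cannot be told apart. Members and lists were chosen with earlier results of these data known. Per-sample values are given for the best detected gene of each role, the 5 genes with the smallest p in each direction and genes whose kept probes disagree in sign. They are also given for Eif3b and Eif4g3, named after their values were seen, and for Eif4e, which none of these rules named. Differences are given also for Eef1b2, Eef1d and Eif4g1. Of each list the 2 genes with the smallest p are named.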

Additional observations from a re-analysis of the deposited data

How the results depend on the processing

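No translation factor gene passed the test in any of the settings run. Without the filter on dim probes 47 of 46522 genes, unnamed probes included, were called (limma with Benjamini-Hochberg adjustment) but 0 members were. In that setting 1 member had an unadjusted p under 0.05 (limma), where 293 of the 46522 genes did. The replicate block changed no call: genes with an unadjusted p under 0.05 went from 105 to 190, and members from 0 to 1. The median difference of the members was 0.41 with the percentile over all probes, 0.41 in the deposited table and -0.09 with normexp. With the slide row, which set C5a 1 alone against the untreated arrays, it was 0.22. It was -0.03 to 0.10 when 1 sample was left out. Members whose groups did not overlap numbered 0 with the percentile over all probes, with quantile normalization and in the deposited table. They numbered 1 with normexp, 1 over genes on all 6 arrays and 3 without the filter. Over all genes the groups did not overlap for 50 of 4488 with the percentile over all probes and in the deposited table. Quantile normalization gave 279 of 4488 and normexp 126 of 4488. Genes on all 6 arrays gave 96 of 2182, and the setting without the filter 1255 of 46522. Detection on all 6 arrays kept 22 members, and on at least 1 array 43.

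Signs turned as follows. Scaling by the percentile over all probes shifts the difference of every gene by the same amount. The deposited table follows that scaling closely, so its values repeat the same shift. For the other settings the cause was not tested. With the percentile over all probes and the deposited table, Eif1 was 0.11 and 0.11, Eif3b 0.20 and 0.20, Eif3i 0.12 and 0.12, Eif4g1 0.13 and 0.13, Eif4g3 0.20 and 0.20, Eif6 0.12 and 0.12, Dhps 0.17 and 0.17, Dph3 0.12 and 0.12, and Mtif2 0.29 and 0.29. With normexp, Eef1d was -0.023, Eef1g -0.10, Eif1 0.044, Eif3e -0.079, Eif3h -0.057, Eif3m -0.0059, Eif4ebp1 -0.25, Cars -0.15, Gars -0.0027, Mtif2 0.018, Paip2 -0.045, Pelo -0.043 and Tufm -0.20. The slide row as covariate set C5a 1 alone against the untreated arrays. In that fit Eef1g was -0.069, Eef2 -0.022, Eif1 0.48, Eif3c -0.048, Eif3i 0.0051, Eif4a1 -0.13, Eif4ebp2 0.47, Eif4g1 0.69, Dhps 0.00048, Dph3 0.70 and Mtif2 0.13. With array weights, Eif3h was -0.12, Eif4a1 -0.019, Eif4ebp1 -0.12, Eif5a 0.0011, Dph3 0.16 and Pelo -0.0039. With the mean of kept probes, Eef1g was -0.050 and Eif3h -0.027, and with quantile normalization Eif4g3 was 0.038. Leaving out 1 sample gave -0.059 to 0.41 for Eef2, -0.95 to 0.28 for Eif1a, -0.0082 to 1.06 for Eif2b2, -0.041 to 0.10 for Eif3c, -0.082 to 0.16 for Eif3h, -0.11 to 0.20 for Eif4a1, -0.23 to 0.79 for Eif4ebp1, -0.70 to 0.19 for Eif4g1, -1.13 to 0.14 for Eif5a, -0.50 to 0.050 for Dhps, -0.71 to 0.46 for Dph3, -0.76 to 0.29 for Etf1, -0.27 to 0.22 for Mtif2, -0.063 to 0.59 for Pelo and -0.17 to 0.37 for Tufm.

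Of the 24 members named with a difference, 5 kept their sign in all settings run. Leaving out 1 sample turned the sign or moved the size by over 1.5 times in 21 of these 24 and in 16 of 16 genes named from the other lists. Steadiness ranks under other scalings and the signs within pairs were added after seeing the data. With 3 arrays per group, and signals near background on the dimmer arrays, differences smaller than the intervals above cannot be seen. Larger ones can be missed as well, because these intervals make no allowance for the number of genes tested.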
